A study of Mus musculus with 96 samples.

Results

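The members described here are the mature miRNAs of 4 rodent families, miR-297, miR-466, miR-467 and miR-669. They were chosen by name alone: every row of the mature miRNA count tables whose name began with one of these family numbers, followed by a letter or a hyphen, was taken, which gave 80 of 1978 rows. The miR-297 family had 6 rows, miR-466 had 31, miR-467 had 13 and miR-669 had 30. The small RNA libraries came from the hearts of male C57Bl/6J mice aged 12 to 14 weeks. Acute myocardial infarction (AMI) was induced by tying off the left anterior descending artery for good, and hearts were taken at D1, D3, D7, D14 and D28, while the D0 control mice had no infarction. Each heart was separated into cardiomyocytes (CMs, by slow centrifugation), hematopoietic cells (HCs, with anti-CD45 beads), endothelial cells (ECs, with anti-CD144 beads) and fibroblasts (FBs, the cells that stuck to a plastic dish), so that each isolate is an enriched fraction and not a single cell type. Each of the 24 groups of cell type and day had 4 libraries, 96 in all, and each library was a pool of RNA from 3 mice (2 where a sample was missing). According to the paper, the pools of the isolates at a time point were drawn from matched mice. CM libraries were made from 500 ng of RNA with 14 PCR cycles, EC libraries from 50 ng with 16 cycles, and FB and HC libraries from 150 ng with 15 cycles, in batches of their own for each cell type, so that input, cycles and batch cannot be told apart from cell type.

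A miRNA hairpin is cut into a 5p and a 3p arm, and either arm can be loaded into the silencing complex, where bases 2 to 8 of the miRNA (the seed) select target mRNAs. Most hairpins of these families lie in an intron of Sfmbt2, which encodes a Polycomb group protein and is an imprinted gene expressed from the paternal copy in the mouse placenta. The cluster is specific to rodents, was built by repeated duplication, and holds many near-identical hairpins rich in runs of alternating bases. For a few of its miRNAs a function has been described: miR-467b as a repressor of lipoprotein lipase in macrophages, miR-467a as a repressor of thrombospondin-1 in endothelial cells, and miR-669a as a brake on skeletal muscle differentiation in cardiac progenitors.

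In the GENCODE annotation of GRCm38, the 80 rows belonged to 82 hairpins. Of these, 71 lay in a single Sfmbt2 intron on chromosome 2, on the strand of the gene, between positions 10466663 and 10518279, a span of 51617 bases. The exons on either side ended at 10461472 and began at 10523945, and Sfmbt2 itself reached from 10370510 to 10595253. No exon lay within the span and no miRNA of another family lay in the gene. Another 10 hairpins were elsewhere in the genome, on chromosomes 3, 5, 7, 9, 10, 11 and 13, and 1 (mir-466c-3) was not placed. By row, 66 members came from the intron alone, 9 from elsewhere alone and 5 from both.

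RefSeq sequences (GRCm38.p6) matched 8 of the 80 members, and all 8 are encoded outside the Sfmbt2 intron. No sequence of a member from the intron was available, so these 8 do not stand for the families. They are shown because most hold alternating runs of purine and pyrimidine. They also include miR-467h, among the 8 members with the highest level, and miR-466i-3p, whose partner arm followed another course. Capitals mark the seed.

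miR-467h: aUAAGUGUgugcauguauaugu
miR-466i-3p: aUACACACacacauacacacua
miR-467f: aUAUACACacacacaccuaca
miR-466k: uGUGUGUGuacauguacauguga
miR-466j: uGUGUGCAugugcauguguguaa
miR-467g: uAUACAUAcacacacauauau
miR-669n: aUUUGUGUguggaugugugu
miR-466q: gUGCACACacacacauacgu

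The 8 seeds were all different, so a family name did not stand for a shared seed among these sequences. A run of at least 4 repeats of a pair of unlike bases was present in 6 of the 8 (miR-466q and miR-467f had 6 repeats), against 0.774% of the 1679 mature sequences in the RefSeq table. The longest runs of miR-467h and miR-466j had 3 repeats. The 8 sequences fell into those rich in G and U (90% of the bases of miR-669n) and those rich in A and C (86.4% of the bases of miR-466i-3p). The hairpin of miR-466k, at chr3:85467377-85467498 on the plus strand, is shown because its row was among the highest of the hairpin tables described at the end while its mature row was low. Capitals mark the mature miRNA, and the longest alternating run in the hairpin had 11 repeats.

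mir-466k: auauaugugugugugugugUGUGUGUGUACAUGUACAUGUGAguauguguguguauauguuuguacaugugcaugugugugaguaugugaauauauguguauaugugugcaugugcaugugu

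The similarity of the members was visible in the counts. Of the 80 rows, 74 had at least 1 count and 6 had none in any library (miR-466h-3p, miR-466l-5p, miR-466q, miR-669h-3p, miR-669j and miR-669k-3p). Among the rows with counts, 7 sets that held 16 rows had the same count in every one of the 96 libraries, so that 65 distinct members remained. The sets were miR-669a-5p with miR-669p-5p (11830 counts over all libraries), miR-669a-3p with miR-669o-3p (7321), miR-466a-3p with miR-466e-3p (3876), miR-466b-5p with miR-466o-5p (2523), miR-466b-3p with miR-466c-3p and miR-466p-3p (1683), miR-466m-5p with miR-669m-5p (522), and miR-297a-3p with miR-297b-3p and miR-297c-3p (145). Identical counts were not particular to these families, since 77 of the 1561 rows with counts fell into 32 such sets, and 2 of these sets joined a member (miR-669i with 1 count, miR-669n with 2) to miRNAs of other families. Other members were nearly the same: the count of miR-467c-3p was 0.981 to 1.15 times that of miR-467b-3p in the 35 libraries compared, and miR-669a-3-3p was 0.604 to 0.882 times miR-669a-3p in 52. How reads that match several of these sequences were shared out is not given in the sources used here, so such rows are not independent measurements and the level of each alone is uncertain. Each set is named below by its first member.

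The mature counts per library ranged from 3327351 to 24279105 in CMs, 525651 to 29037628 in ECs, 2217588 to 65588543 in FBs and 18286 to 29504666 in HCs. HC D0 replicate 3, with the 18286 counts, held no count of any member, which in a library of that size allows a summed level of up to 164 counts per 1000000 mature counts (CPM). It, FB D0 replicate 2 and EC D28 replicate 3 lay farthest from the other libraries of their group, and results that rest on them are given with and without them. The isolates carried their marker miRNAs: the 3 hematopoietic markers miR-142a-3p, miR-223-3p and miR-150-5p summed to 5851 to 21302 CPM in HCs, against at most 336 in FBs and 289.5 in CMs. In ECs this sum was 976.5 to 4614 CPM, most of it miR-150-5p, while miR-142a-3p stayed at or below 25.6 CPM there. HCs also held the 4 CM markers (miR-1a-3p, miR-133a-3p, miR-208a-3p and miR-499-5p), with medians of 110332 CPM at D0 and 31060 at D7.

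Summed over the 80 rows, the families were lowest in CMs and highest in HCs. The CPM of the members is the sum of their counts per 1000000 mature counts of the library. The median of the sum over the 24 CM libraries was 23.6 CPM (lowest 5.43, highest 53.0). For EC libraries the median was 98.9 CPM (lowest 27.7, highest 123), for FB libraries 116 CPM (70.3, 244) and for HC libraries 417 CPM (0, 1283). EC and FB libraries overlapped, while each HC library except D0 replicate 3 lay above every library of the other isolates taken on the same day. With rows of identical counts taken once, the medians were 20.6, 85.3, 102 and 366 CPM, in the same order. In bulk isolates, fewer cells of a type and less RNA per cell cannot be told apart.

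**Figure D1:**
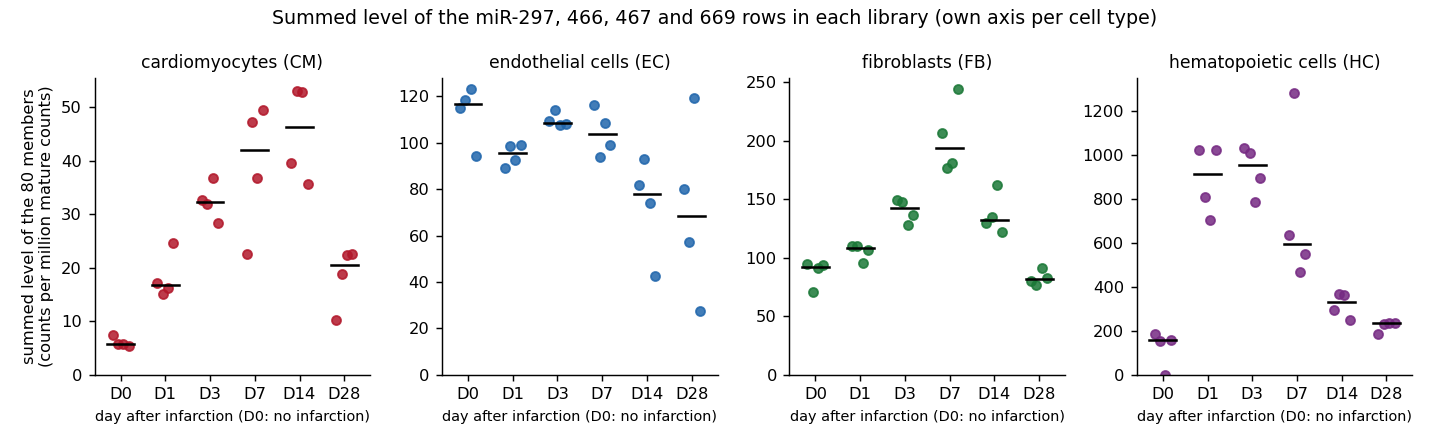
Summed level of the 80 members (vertical axis, counts per 1000000 mature counts, a separate axis for each cell type) in each library by day, with 4 libraries per group as points and the group median as a bar. HC libraries of D1 and D3 reached 702 to 1031 CPM against 153.9 to 185 in 3 of the D0 libraries, the point at 0 is HC D0 replicate 3, and FB libraries were highest at D7.

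A few members made up most of the signal. miR-467a-5p, which has 10 hairpins in the intron, had the highest mean level over the 24 groups, 48.4 CPM, followed by miR-669c-5p (13.2), miR-467c-5p (10.2), miR-669a-5p (10.0), miR-669a-3p (7.10), miR-669o-5p (6.89), miR-467e-5p (6.31) and miR-467h (6.12). The share of miR-467a-5p in the summed level had a median of 16.4% in ECs, 23.5% in FBs, 24.5% in HCs and 27.3% in CMs. By family, miR-467 held 47.4% of the summed level averaged over the groups, miR-669 held 37.7%, miR-466 held 13.6% and miR-297 held 1.31%. Between isolates the share of miR-467 ran from 39.1% in ECs to 49.2% in HCs and that of miR-669 from 34% in CMs to 42.9% in FBs. The share of miR-466 was 9.8% in FBs and 17.2% in ECs, and that of miR-297 was 1.04% in ECs and 2.4% in CMs.

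**Figure D2:**
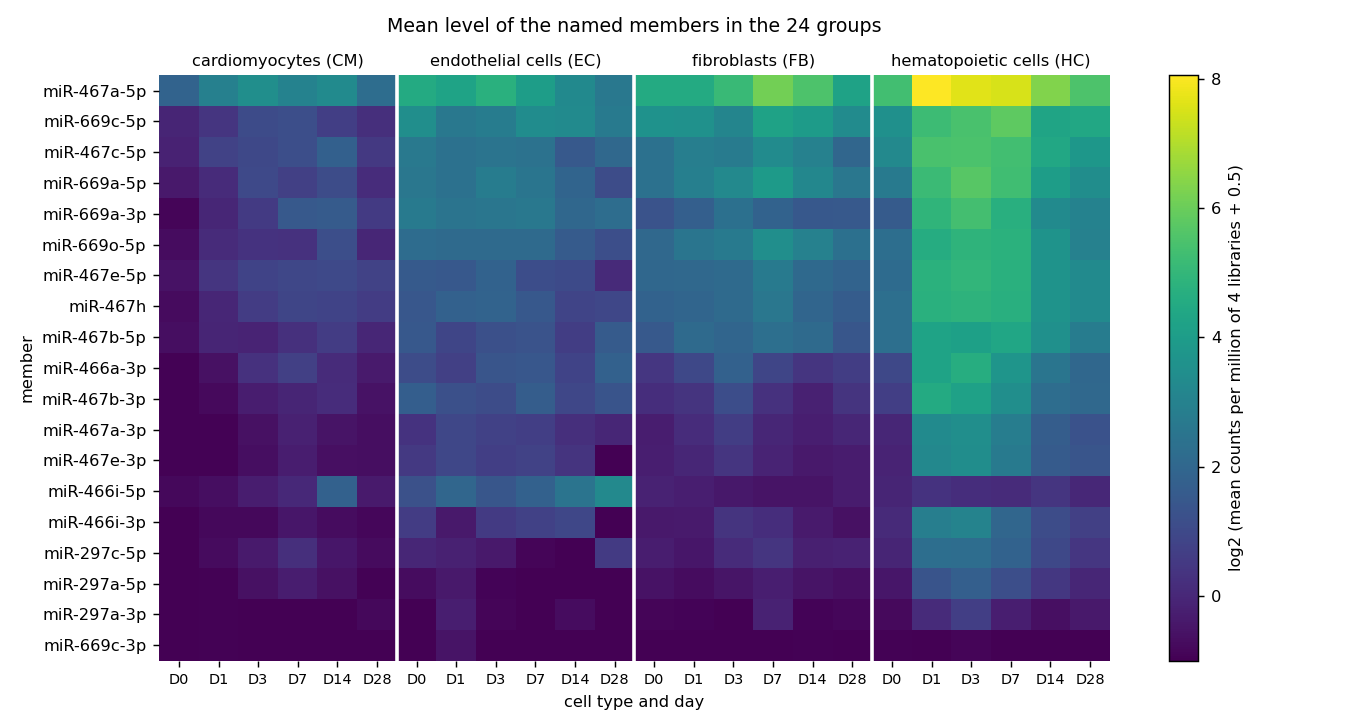
Mean level of the named members in each of the 24 groups, as log2 of the mean of 4 libraries in CPM plus 0.5 (colour), with members ordered by level and cell types in blocks of 6 days. Most rows were brightest in HCs at D1, D3 and D7, and miR-466i-5p was brightest in ECs at D28. The HC D0 means include the library with no member count.

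The number of members detected was compared at the depth reached and at an equal depth. At the depth reached, 12 to 48 of the 80 were detected per CM library, 18 to 51 per EC library, 15 to 61 per FB library and 55 to 69 per HC library apart from D0 replicate 3. At an equal depth of 500000 counts, the number expected was 1.80 to 2.58 in CMs at D0 and 12.5 to 15.5 at D14, and 23.1 to 25.6 in 3 HC libraries at D0 against 44.2 to 47.8 at D3. The corresponding number of all miRNAs expected in HCs was 465.8 to 472 at D0 and 522 to 532 at D3. The libraries of D0 and of the later day did not overlap in any of these pairs, and HC D0 replicate 3 was too shallow for this value. The number of all miRNAs expected in CMs is not given here. With counts scaled by library size alone, 83.1% of all miRNAs tested in CMs were higher at D14 (adjusted p under 0.05, edgeR). The rise in CMs is thus not shown to be particular to the families.

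The comparison between isolates asked in which cells the members were most abundant. It used a single edgeR quasi-likelihood fit over all 96 libraries, with scaling by trimmed means of M values (TMM) and the mean over the 6 days of each isolate, and 55 of the 80 members were among the 712 miRNAs tested (adjusted p under 0.05 counts as a call, with Benjamini-Hochberg adjustment over all 712). The filter on low counts covered all groups together, so a member could enter through the isolate in which it was high. In HCs, 54 of the 55 were higher than in FBs and none was lower, where 47.6% of all tested miRNAs were higher in HCs. Against CMs, 54 were higher in HCs (41.9% of all) and 1, miR-466i-5p, was lower. Against ECs, 50 were higher in HCs (40% of all) and 1, again miR-466i-5p, was lower. CMs had lower levels than ECs for 22 members (37.2% of all) and than FBs for 26 (40.9% of all). Between ECs and FBs the members split: 11 were higher in ECs (31.9% of all) and 22 were higher in FBs (39.9% of all).

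That split lay along the arms: apart from miR-466i-5p, none of the members higher in ECs was a 5p row, and none of those higher in FBs was a 3p row. miR-467b-3p had 1.17 to 3.69 CPM in the 4 EC libraries of D0 and 0 to 0.937 CPM in those of FBs, and over all days it was higher in ECs than in FBs by 1.46 ± 0.25 on the log2 scale (SE, adjusted p = 3.34e-07, edgeR). Its 5p partner was lower in ECs by 0.85 (adjusted p = 8.88e-06, edgeR). miR-467a-5p was 0.95 lower in ECs than in FBs (adjusted p = 1.54e-09, edgeR) and 2.13 lower in ECs than in HCs (adjusted p = 1.02e-25, edgeR). miR-466i-5p, encoded on chromosome 13, went against the rest: it had 1.37 to 2.68 CPM in EC D0 libraries and at most 0.847 in those of HCs, and was 3.07 higher in ECs than in HCs (adjusted p = 2.69e-18, edgeR). Its excess in CMs over HCs, 1.27 with TMM (adjusted p = 0.000375, edgeR), turned to -0.86 with library size as the only scaling.

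In HCs nearly all tested members rose after infarction. miR-467a-5p stood at 53.8, 48.8, 0 and 54.7 CPM in the 4 libraries of D0 and at 391, 236, 168 and 266 CPM in those of D1. At D3 it stood at 211, 247, 174 and 159 CPM, and at D28 at 40.7, 37.4, 51.3 and 54.1. All D1 and D3 libraries were thus above all D0 libraries, and those of D28 overlapped with D0. On the TMM scale the rise was 1.93 ± 0.29 (log2, SE) at D1 (adjusted p = 5.27e-06) and 1.42 ± 0.29 at D3 (adjusted p = 0.000141, both by the edgeR test, adjusted over 608 miRNAs).

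Of the 80 members, 52 passed the filter on low counts in HCs and 28 did not. The filter covered all days together, so a member scarce at D0 could pass through the days on which it was high. How far this set the share of members called higher was not tested. The 28 that were not tested held 0.586% of the members' counts in HCs, 7 of them had no count there, and the highest total, that of miR-466f-3p, was 145. At D1, 45 of the 52 were higher than at D0 (25.3% of all tested miRNAs were), at D3 50 (30.9%), at D7 47 (29.9%), on D14 22 (15.3%) and on D28 8 (12.7%), and none was lower on any day (28.9%, 28.1%, 19.6%, 12.8% and 11.3% of all were, in turn). Over the 6 days together 50 changed (73.5% of all). Of the 43 distinct members among them, 37 were higher at D1 and 41 at D3. The median log2 fold change of the tested members was 2.47 at D3, its highest value, 2.08 at D1 and 1.89 at D7, and it was 0.77 and 0.38 on the last 2 days, beside medians from -0.08 to 0.18 for all tested miRNAs. The 2 members not called at D3 were miR-466i-5p and miR-466h-5p, named here after their values were seen.

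The same change appeared in the summed level, which was 153.9 to 185 CPM in 3 D0 libraries, 702 to 1022 at D1, 786 to 1031 at D3, 468 to 1283 at D7, 249 to 366 on D14 and 184 to 237 on D28. The ratio of medians to D0 was highest at D3 (6.10), with 5.87 on D1, 3.80 on D7, 2.11 on D14 and 1.496 on D28. By family the D3 sums were 8.35 to 16.7 CPM for miR-297 (1.49 to 2.17 in 3 D0 libraries), 113 to 201 for miR-466 (15.6 to 21.5), 347 to 462 for miR-467 (84.4 to 96.03) and 317 to 373 for miR-669 (50.6 to 65.5). Without HC D0 replicate 3, and with the filter on low counts applied anew, 45, 53, 48, 18 and 6 members were called on the 5 days, of which 42, 50, 46, 18 and 6 were also called with all libraries. At D14, leaving out D0 replicate 2 left 10 calls, and at D28, leaving out D0 replicate 1 left 3, so the late counts rested on single D0 libraries.

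**Figure D3:**
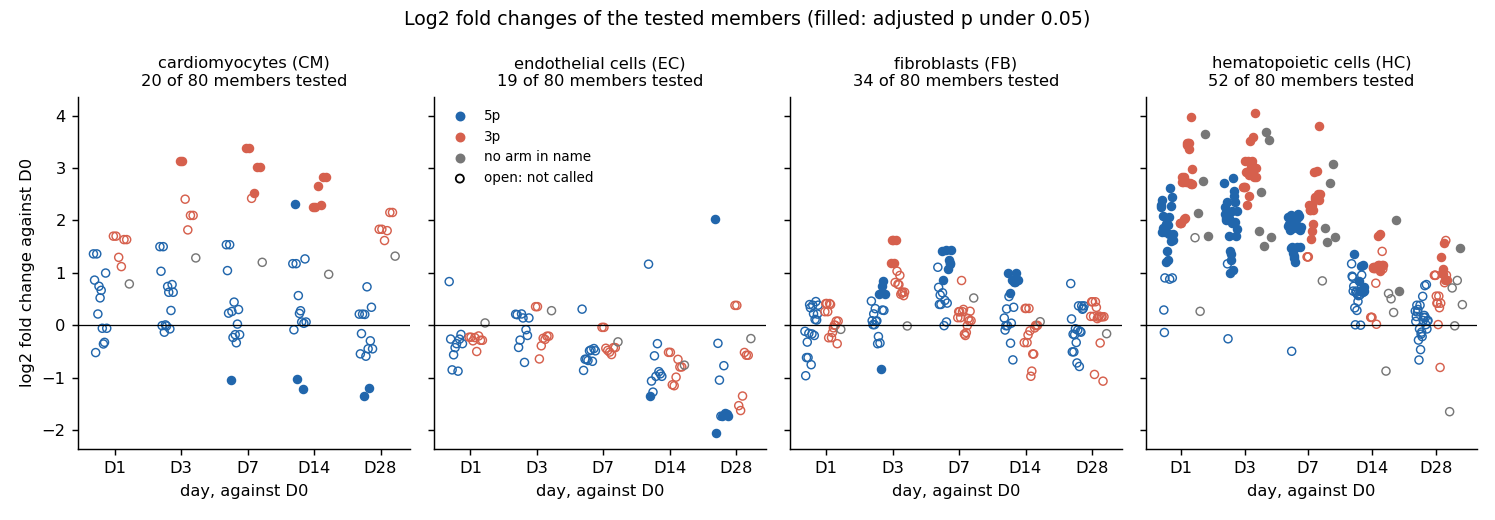
Log2 fold change of each tested member against D0 (vertical axis) by day and cell type, with 5p arms in blue, 3p arms in red, rows with no arm in the name in grey, and filled points for an adjusted p under 0.05. In HCs the median of the 3p arms lay above that of the 5p arms at D1 and D3 (2.73 against 1.79 at D1), and in FBs the filled points at D7 and D14 were all 5p arms. By day, the most points were filled at D14 in CMs and at D28 in ECs.

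The composition of the HC isolates moved with these rises. The summed level of the 3 hematopoietic markers had a median of 6307 CPM at D0 and was highest at D1 (16522) and D3 (16201), with 13680, 9404 and 8069 CPM on the later days. Among them miR-223-3p, which is abundant in neutrophils and other myeloid cells, had a median of 783 CPM at D0, 3397 at D1 and 2810 at D3, while miR-150-5p, which is abundant in mature lymphocytes, had medians of 2333, 1831 and 2210. The summed CM markers had a median of 110332 CPM at D0 and 46548 at D3, and the 2 EC markers, miR-126a-3p and miR-126a-5p, 71209 and 19333. The share of reads with no match in the mature table moved too, from 34.3% to 51.6% at D0 to 52.1% to 73.8% at D1. The part of these shifts in the rise of the members was not tested.

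The arms of a hairpin did not rise equally in HCs. All 21 tested 3p rows (15 distinct members) were higher at D1, with log2 fold changes from 1.95 to 3.98. Of the 25 tested 5p rows (22 distinct members) 20 were, with log2 fold changes from -0.14 to 2.61. Of all tested miRNAs 25.3% were higher, and some of the distinct 3p members are nearly the same, as given above. miR-467b-3p stood at 1.28, 1.38, 0 and 1.76 CPM at D0 and at 23.6, 19.4, 17.7 and 29.8 at D1, a rise of 3.48 ± 0.34 (log2, SE, adjusted p = 9.43e-09, edgeR). miR-467b-5p stood at 6.35, 5.94, 0 and 5.46 CPM at D0 and at 22.4, 15.4, 10.7 and 25.4 at D1, a rise of 1.21 ± 0.28 (adjusted p = 0.000806, edgeR). At D0 the 5p arm was thus the more abundant, and at D1 both arms had nearly the same level. The largest rises among the named members were those of miR-467e-3p (3.60 ± 0.38, adjusted p = 1.4e-08) and miR-467a-3p (3.53 ± 0.42, adjusted p = 6.96e-08, both edgeR) at D3. miR-467e-3p went from 0.305 to 0.725 CPM in 3 D0 libraries to 7.06 to 12.3 at D3, and miR-467a-3p from 0.305 to 0.907 to 8.67 to 13.1. Both rested on few D0 counts, and the count of miR-467e-3p was 0.524 to 1.38 times that of miR-467a-3p in the 24 libraries compared.

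The 5p to 3p ratio within a library does not depend on its scaling and was tested with limma over the 6 days. With all libraries, 2 of 11 hairpins of the families were called in HCs (15.8% of all 152 hairpins tested), miR-467b (adjusted p = 0.00344) and miR-467d (adjusted p = 0.000193, both limma). Replicate 3 of D0, with 0 counts on both arms, entered that fit as a log2 ratio of 0. Without it 7 of 11 were called (34.4% of all tested): miR-467a, b, c, d and e, miR-669a and miR-669o. The log2 ratio of miR-467b was 2.00 ± 0.34 at D0 (SD, n = 3), -0.34 ± 0.28 at D1 (SD, n = 4) and 1.44 ± 0.36 at D14 (SD, n = 4), with an adjusted p of 2.86e-06 over the days (limma). miR-467c went from 2.98 ± 0.42 to 0.89 ± 0.26 at D1 (adjusted p = 6.25e-06), miR-467d from -0.14 ± 0.35 to -2.24 ± 0.55 (9.05e-05) and miR-467e from 3.24 ± 0.53 to 1.67 ± 0.28 (0.000406, limma). In all 4 the ratio was lower at D1 than at D0 in every library used. The 3p counts of miR-467b and miR-467c were nearly the same, as given above, and that of miR-467d was 1 to 1.85 times that of miR-467c in 36 libraries, so these ratios are not independent.

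**Figure D4:**
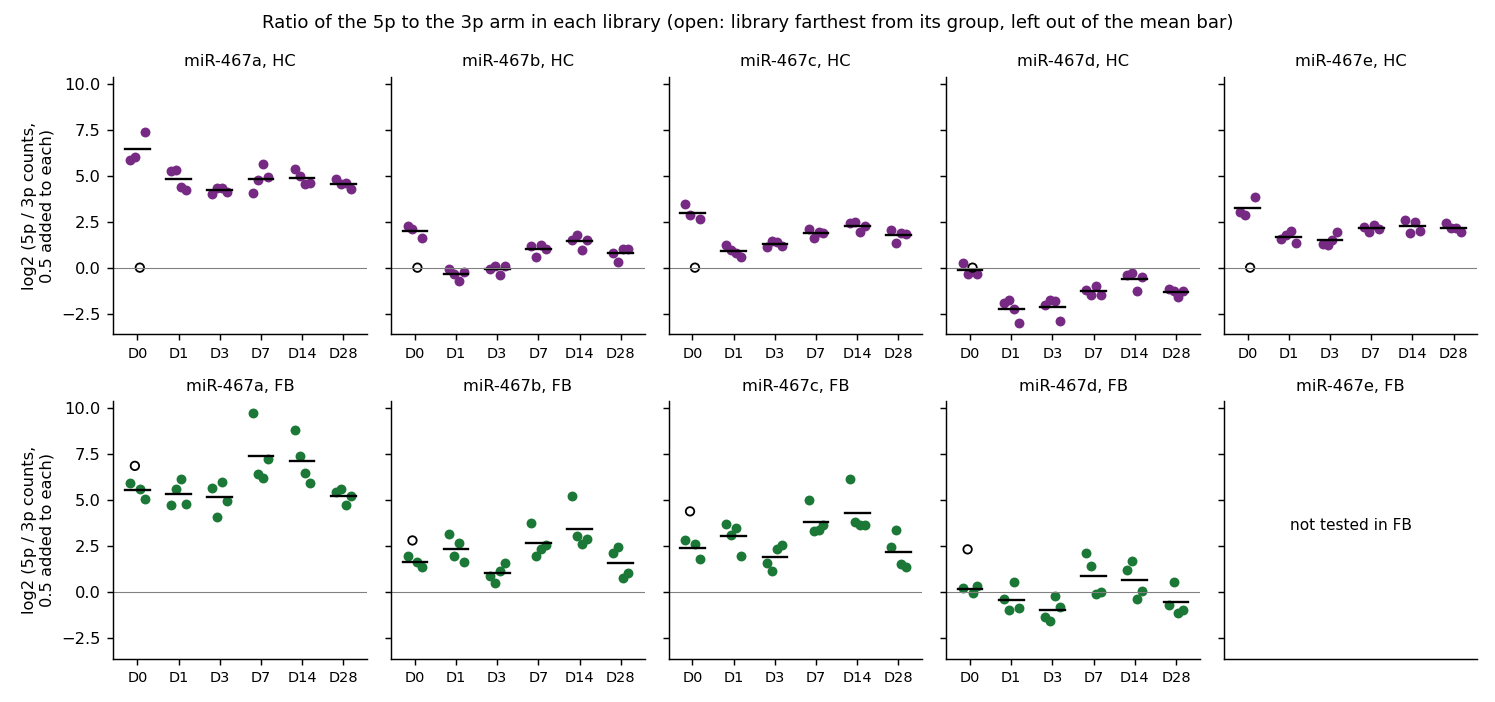
Log2 ratio of 5p to 3p counts (0.5 added to each, vertical axis) of 5 miR-467 hairpins in each HC library (upper row) and FB library (lower row) by day. Bars are means without the library farthest from its group (open point). In HCs the ratio of miR-467b lay between 1.62 and 2.29 at D0 and between -0.73 and -0.07 at D1, and in FBs the 4 means were highest at D7 or D14. The ratio of miR-467e was not tested in FBs.

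miR-669c-5p rose in HCs by 1.05 ± 0.39 at D3 (adjusted p = 0.0242) and 1.49 ± 0.40 at D7 (adjusted p = 0.00301, both edgeR), while miR-669c-3p had 9 counts in all libraries together and was not tested. Without D0 replicate 1, D0 replicate 2 or D3 replicate 3 the D3 call was lost. miR-466i-3p went from 0.339 to 1.10 CPM in 3 D0 libraries to 5.24 to 12.7 at D3, a rise of 2.87 ± 0.42 (adjusted p = 1.7e-06, edgeR), but miR-466i-5p stood at 0.378, 0.616, 0 and 0.847 CPM at D0 and at 0.339, 1.08, 0.802 and 0.308 at D3, a difference of -0.26 ± 0.60 (adjusted p = 0.734, edgeR). The D3 libraries of the 5p arm overlapped with those of D0.

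The miR-297 family, the least abundant, followed the others in HCs. miR-297c-5p stood at 0.529, 0.688, 0 and 0.61 CPM at D0 and at 2.97, 2.57, 3.63 and 8.26 at D1, a rise of 2.40 ± 0.44 (adjusted p = 6.24e-05, edgeR). All 6 rows (4 distinct members) were called higher at D1 and D3, where 25.3% and 30.9% of all tested miRNAs were. At D7, 3 of the 6 were called higher (29.9% of all). The call of the 3 identical 3p rows at D1 (adjusted p = 0.0401, edgeR) was lost without the farthest libraries, without the filter and with DESeq2. miR-466a-3p, the highest of its family, rose by 3.13 ± 0.35 at D3 (adjusted p = 2.84e-08, edgeR), from 1.66 to 2.19 CPM in 3 D0 libraries to 16.5 to 35.8.

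Some members encoded outside the intron were also called in HCs. miR-467h, on chromosome 9, stood at 6.77, 5.33, 0 and 5.76 CPM at D0 and at 29.3, 21.9, 22.2 and 31.7 at D1, a rise of 1.70 ± 0.25 (adjusted p = 4.52e-06, edgeR). Its count was 0.73 to 1.25 times that of miR-467e-5p, from the intron, in the 54 libraries compared, so these reads could not be assigned to either place. Of the 6 tested rows encoded only elsewhere, 4 were called higher at D1 and 5 at D3 (25.3% and 30.9% of all were). The medians of the 6 rows were 2.23 and 2.28 on the log2 scale. The 43 tested rows of the intron had medians of 2.09 and 2.47, and the difference between the 2 sets of rows was not tested. In the hairpin tables described at the end, the ratio of medians to D0 was 1.61 at D1 and 2.42 at D3 for hairpins from elsewhere, against 7.37 and 7.60 for those of the intron. 

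In FBs 8 of the 18 tested 5p rows were higher than at D0 at D7 and 8 at D14, and 10 were not called on each of these days. miR-467a-5p stood at 20.8, 26.1, 21.04 and 22.01 CPM at D0, at 70.8, 55.1, 63.3 and 88.0 at D7 and at 48.8, 48.5, 47.5 and 36.5 at D14. All D7 and D14 libraries were above all D0 libraries, and the rise was 1.42 ± 0.19 (log2, SE) at D7 (adjusted p = 1.75e-06) and 0.99 ± 0.19 at D14 (adjusted p = 0.000401, edgeR over 563 miRNAs). miR-669a-5p went from 3.94 to 5.78 CPM at D0 to 11.49 to 18.9 at D7, a rise of 1.44 ± 0.21 (adjusted p = 6.95e-06, edgeR). miR-669o-5p rose by 1.19 ± 0.21 (adjusted p = 8.54e-05) and miR-467c-5p by 0.86 ± 0.21 (adjusted p = 0.00168, both edgeR) on the same day.

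In all, 34 of the 80 members were tested in FBs, and 17 changed over the 6 days (68.2% of all tested miRNAs did). None was called at D1 (7.99% of all) or D28 (6.75% of all) with edgeR or with DESeq2, and 1 had an unadjusted p under 0.05 on each of these days. At D7, 8 were higher (24.5% of all tested miRNAs were), and at D14 8 (14.4%), all of them 5p arms, while 0 of the 15 tested 3p members were called on either day. At D3, 9 were higher (22.9% of all) and 1 lower (20.1% of all). The 9 at D3 included 5 rows of 3p arms, which are 2 distinct members: miR-466b-3p (1.63 ± 0.49, adjusted p = 0.00861) and miR-466a-3p (1.18 ± 0.42, adjusted p = 0.0247, both edgeR), each named with its identical rows. Without D14 replicate 3 the D14 count was 4, and without D0 replicate 1 the D3 count was 6.

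The member that fell, miR-669c-5p, stood at 12.9, 11.7, 11.6 and 10.8 CPM at D0, at 7.91, 6.33, 8.17 and 10.3 at D3 and at 21.7, 13.6, 14.2 and 23.3 at D7. All D3 libraries were below and all D7 libraries above those of D0. The fall at D3 was 0.83 ± 0.21 on the log2 scale (log2 fold change -0.83, adjusted p = 0.00251, edgeR), and the difference at D7, 0.42 ± 0.21, was not called (adjusted p = 0.104, edgeR). The summed level in FBs was 70.3 to 95.0 CPM at D0, 128 to 149 at D3, 176 to 244 at D7, 122 to 162 at D14 and 77.0 to 91.3 at D28, with no overlap of the D3, D7 or D14 libraries with D0. The 3 hematopoietic markers summed to a median of 216 CPM in FBs at D0 and 119 at D7, and the part of the isolate's composition in these values was not tested.

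In FBs the arm ratio over the 6 days was called for 4 of 9 hairpins with all libraries (49.7% of all 147 tested): miR-467a, b, c and d. Single days were not tested, and with a mean of at least 50 counts per arm 0 were called. Without FB D0 replicate 2, in which 15 members were detected, 7 were called (56% of 150). With all libraries, the log2 ratio of miR-467c was 2.91 ± 1.08 at D0, 3.83 ± 0.80 at D7 and 4.31 ± 1.22 at D14 (SD, n = 4 each, adjusted p = 0.0152 over the days, limma). That of miR-467d was 0.69 ± 1.10 at D0, 0.86 ± 1.10 at D7 and 0.65 ± 0.97 at D14 (SD, n = 4 each), and that of miR-466b, which was not called, was 1.98 ± 1.56, 1.48 ± 1.03 and 1.49 ± 0.80. Without FB D0 replicate 2, the D0 ratio was 2.41 ± 0.53 for miR-467c and 0.15 ± 0.21 for miR-467d (SD, n = 3 each). The ratio of miR-466b then lay 0.07 above D0 at D7 and 0.08 above at D14, and was again not called (adjusted p = 0.162, limma). In HCs the ratio of miR-467c was lower on each day after infarction than in the 3 D0 libraries with counts.

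The time courses of HCs and FBs, the isolates made with equal RNA input and PCR cycles, were compared directly by testing the 5 differences from D0 in HCs against those in FBs. The course differed for 36 of the 55 members, where it differed for 44.1% of all tested miRNAs, and for 29 of the 55 with the replicate number as a block. Among the named members the smallest adjusted p was that of miR-467a-5p (1.2e-05), followed by miR-467b-3p (8.3e-05) and miR-669a-5p (0.000124, edgeR). Some named members had been chosen for a large change from D0 in these isolates. The courses of miR-467b-5p (adjusted p = 0.481) and miR-467c-5p (adjusted p = 0.0678, edgeR) were not shown to differ. Without the 3 farthest libraries 36 were again called.

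In CMs the members were scarce, and the direction of miR-467a-5p and miR-669c-5p depended on the scaling. With TMM, 15, 16, 15, 17 and 12 of the 20 tested members had log2 fold changes above 0 on the 5 days. Of all tested miRNAs 57.2%, 58.7%, 55.8%, 57.2% and 56.8% had. In CPM, miR-467a-5p stood at 3.71, 2.41, 3.30 and 3.37 CPM at D0, at 5.88, 7.44, 7.32 and 9.90 at D7 and at 3.10, 4.50, 4.25 and 4.85 at D28, so that all D7 libraries were above D0 and those of D28 overlapped. With TMM the same member was lower than at D0 by 1.05 ± 0.44 at D7 (log2 fold change -1.05, adjusted p = 0.0375) and by 1.36 ± 0.45 at D28 (log2 fold change -1.36, adjusted p = 0.0129, both edgeR). When counts were scaled by library size alone, the values were 1.26 and 0.38, because the median of all tested miRNAs then moved up by 1.42, 2.37, 2.67, 2.99 and 1.99 on the 5 days in turn. The CM markers had a median of 662099 CPM at D0 and 383072 at D14, and TMM factors in CMs ran from 0.289 to 2.04.

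With TMM, 20 of the 80 members were tested in CMs, and 7 changed over the 6 days (73.8% of all tested miRNAs did). None was called at D1 (25% of all) with edgeR or DESeq2, and none had an unadjusted p under 0.05, while 2 were higher at D3 (31.8% of all tested miRNAs were), 5 were higher and 1 lower at D7 (38.8% and 30.2% of all), 7 were higher and 2 lower at D14 (38% and 29.1%), and 2 were lower and none higher at D28 (24.8% of all were lower). At D7 all 5 rises were of 3p arms, among them miR-466a-3p at 3.38 ± 0.86 (adjusted p = 0.00148) and miR-669a-3p at 3.03 ± 0.94 (adjusted p = 0.00644, both edgeR). miR-466a-3p had 0.0952, 0, 0 and 0 CPM at D0 and 0.508, 1.503, 1.09 and 1.47 at D7, where a count of 0 in a D0 library allows up to 0.187 to 0.286 CPM. With library size only, 13, 19, 20, 20 and 13 of the 20 were higher on the 5 days and none was lower. The hematopoietic markers in CMs summed to a median of 16.7 CPM at D0 and 199 at D7, and the FB markers miR-199a-3p, miR-199a-5p and miR-214-3p to 38.1 and 1716. Their part in the rises was not tested. The late calls rested on single libraries: 1 member was called at D14 without CM D0 replicate 4, and at D28 1 without CM D28 replicate 3 and 7 without CM D0 replicate 3.

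In ECs 5 of the 10 tested 5p rows were lower than at D0 at D28, 1 was higher and 4 were not called, and at D14 1 was lower. miR-467a-5p stood at 19.1, 22.5, 23.8 and 25.2 CPM at D0, at 12.3, 13.4, 10.7 and 0.87 at D14 and at 7.61, 8.20, 4.72 and 2.05 at D28. All libraries of D14 and D28 were below those of D0, and the fall was 1.35 ± 0.37 on the log2 scale at D14 (log2 fold change -1.35, adjusted p = 0.0121) and 2.06 ± 0.44 at D28 (log2 fold change -2.06, adjusted p = 0.000463, both edgeR over 421 miRNAs). Of 19 members tested, 4 changed over the 6 days (58.2% of all tested miRNAs did), none was called at D1 (0% of all), D3 (17.6%) or D7 (22.6%), 1 was lower at D14 (3.09% of all), and 5 were lower and 1 higher at D28 (20.2% and 26.8% of all). The others that fell at D28 were miR-669a-5p with its identical row (-1.74), miR-669o-5p (-1.70) and miR-669f-5p (-1.68). The call of miR-669o-5p was lost without D28 replicate 4. At D1, D3 and D7, 1, 0 and 1 of the 19 had an unadjusted p under 0.05, and DESeq2 called 0, 0 and 1. Without EC D28 replicate 3, 9 members were called at D28 and 3 at D14. The D28 libraries were shallow, with 525651, 1829814, 636084 and 3902765 mature counts, so that a count of 0 there allowed up to 0.769 to 5.71 CPM. Markers moved in these isolates too: from D0 to D28 the median sum of the EC markers went from 200615 to 136462 CPM (219377 at D14), that of the CM markers from 103948 to 47616 and that of the FB markers from 2385 to 5237. Their part in the falls was not tested.

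miR-466i-5p moved the other way in ECs. It stood at 1.95, 2.68, 1.37 and 1.43 CPM at D0 and at 15.2, 6.56, 12.6 and 2.31 at D28, a rise of 2.03 ± 0.54 on the log2 scale (adjusted p = 0.00298, edgeR), with replicate 4 within the range of D0. In CMs it stood at 0, 0, 0.311 and 0 CPM at D0 and at 2.53, 3.48, 5.71 and 0.469 at D14, a rise of 2.31 ± 0.99 (adjusted p = 0.0425, edgeR) that was lost with the replicate number as a block and on leaving out any of 6 single libraries. Its 3p partner had 0.489 to 1.43 CPM at D0 and no count in the 4 EC libraries of D28, with the limits given above.

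The hairpin tables count reads aligned to hairpins. Whether reads already counted in the mature tables are among them was not examined. They are thus not taken as the whole level of a hairpin or as a second measure of its mature arms. Hairpin counts are given per 1000000 mature counts of the same library. Since near-identical hairpins can share reads, the level of a single row is uncertain and sums are given first. The sums can hold the same reads several times. The rows mir-467a-2 to mir-467a-10 had equal group medians throughout, each 32.5 in HCs at D1 and 3.21 in FBs at D0. Sums with such rows taken once were not made, so a difference in level between intron and elsewhere sums is uncertain. Hairpins of the Sfmbt2 intron summed to 76.9 to 102 in 3 HC libraries at D0 (109, from a library with few reads, in the fourth), 622 to 928 at D1 and 546 to 806 at D3, and in FBs to 54.1 to 62.3 at D0 and 93.0 to 150 at D7. In both isolates the later libraries lay above those of D0. For hairpins from elsewhere, in FBs the median was 29.8 at D0 and 12.1 at D28, and in HCs 33.7 at D0 and 81.5 at D3. In ECs their sum was 141, 269, 111 and 156 at D0 and 810, 260, 726 and 367 at D28, a ratio of medians of 3.69, with replicate 2 within the range of D0, against 1.00 for the hairpins of the intron.

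**Figure D5:**
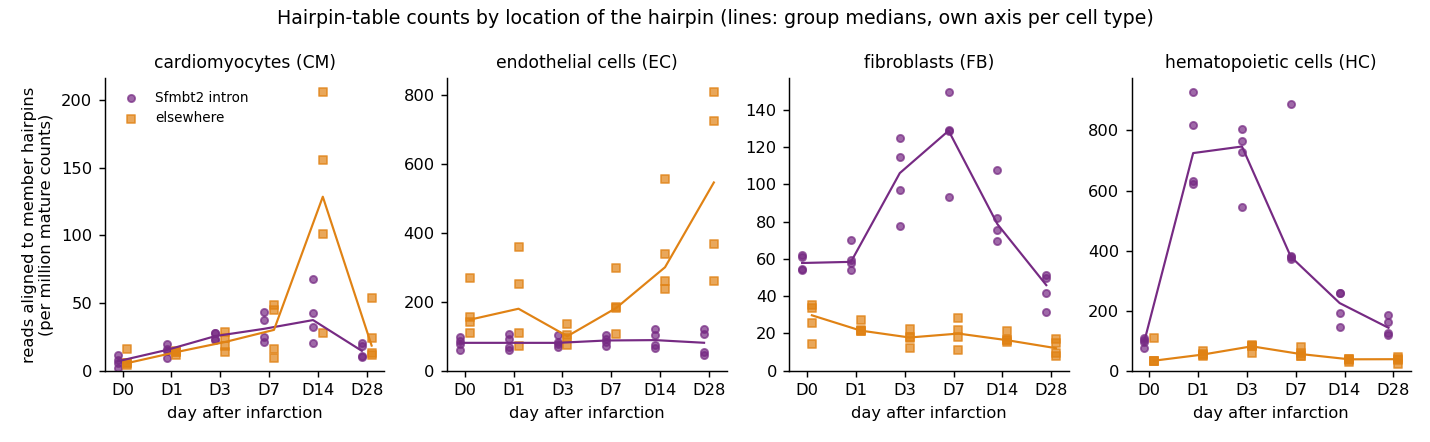
Reads counted to the member hairpins (vertical axis, per 1000000 mature counts, a separate axis for each cell type) by day, with hairpins of the Sfmbt2 intron as circles and those from elsewhere as squares, 4 libraries per group and lines through group medians. By group medians of the sums the intron hairpins were higher in HCs and FBs and those from elsewhere were higher in ECs, where they reached 810 at D28. The sums can repeat the reads of near-identical hairpins, so these differences in level are uncertain.

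The hairpins from elsewhere with the most reads were mir-466q, mir-466i and mir-466k, with means of group medians of 45.5, 23.2 and 15.1 on the same scale, above mir-669c (11.1), the highest row of the intron. Of their mature forms, miR-466q had no count in any library, miR-466k had 450 in all, miR-466i-5p had 839 and miR-466i-3p had 1184. mir-466q was highest in ECs, with a median of 85.8 at D0 and 309 at D28, and reached 51.6, 77.4, 105 and 14.9 in the CM libraries of D14. Read depth and the share of reads with no match moved with these values. The CM D14 libraries had 5525000, 5169258, 3327351 and 14938730 mature counts, and 62.9%, 70.8%, 83.02% and 48.8% of the reads offered to the mature table had no match, so that the deepest library with the fewest unmatched reads had the lowest mir-466q and miR-466i-5p. In ECs the unmatched share was 48.5% to 67.3% at D0 and 66.0% to 77.5% at D28. The part of depth and of unmatched reads in these values was not tested.

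For comparison, 2 other miRNA clusters were counted in the same fits, with no test of the lists. In HCs at D1, 0 of the 48 tested rows of the Dlk1-Dio3 cluster were higher and 30 were lower, with a median log2 fold change of -1.22. At D3, 4 were higher and 17 lower. This cluster then turned upward, with 33 higher at D7 (29.9% of all tested miRNAs were), 25 at D14 (15.3%) and 28 at D28 (12.7%), and none lower. Of the miR-17-92 cluster, 8 of 11 rows were higher at D1, with a median of 0.80. Of all tested miRNAs in HCs, 25.3% were higher and 28.9% lower at D1. In FBs at D7, 47 of 67 Dlk1-Dio3 rows were higher (24.5% of all tested miRNAs were). In ECs at D7, 40 of 43 were, where none of the 19 tested members of the families was called (22.6% of all were called in either direction). The lists differ in size and level, so the counts are a description.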

How the data were processed

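Small RNA libraries of 4 isolates and 6 days were grouped by cell type and day per the labels. The authors trimmed reads with Trim Galore, removed those under 18 nt and counted them with the nf-core smrnaseq pipeline against miRBase version 21. The submitters' processing notes also name Bowtie2 and SAMtools. The deposited values used were raw counts per mature miRNA and per hairpin, 192 tables in all. The share of reads with no match is the unmatched row of the mature table and stayed out of library sizes. Each library is a separate pool of RNA, but libraries of different isolates on the same day can come from the same mice. The labels do not say which do, so the fits over 96 libraries took them as independent, except with the replicate block. Precision follows depth, 18286 to 65588543 mature counts, with a count of 0 allowing up to 3 counts (counting error only). Counts were tested with edgeR 4.0.16 (quasi-likelihood, TMM, filterByExpr) in R 4.3.3, per isolate or over 96 libraries, with Benjamini-Hochberg adjustment over all tested miRNAs and a threshold of 0.05. Arm ratios used limma 3.58.1 with 0.5 added and a mean of at least 10 counts per arm. DESeq2 1.42.0, other scalings, no filter, a replicate block, identical rows taken once and left-out libraries were alternatives. Scripts were tested on simulated data. Named members were the 8 with the highest level, up to 2 per direction and isolate at a mean of at least 5 CPM, the arms of miR-467b, miR-467a, miR-669c, miR-466i and miR-297a, and the highest of each family. The up to 2 per direction had the largest called changes from D0, with no overlap between the libraries of that day and D0. Members and lists were chosen with earlier results of these data known. The study removed 1 replicate from each of EC D28, HC D0 and FB D0 without naming it. Total RNA libraries were not analysed here. Figures used Python 3.11.15 and matplotlib 3.10.9.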

Additional observations from a re-analysis of the deposited data

Results flagged for a closer look

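Dixon's test was run in the 24 groups of 4 libraries on the summed level and on that of each family, 120 tests in all. These are not independent, since the families are parts of the sum. In 14 tests a library lay far from the others, where chance gives about 1 in 20 of independent tests. For the summed level the flagged libraries were FB D0 replicate 2 (70.3 CPM), HC D0 replicate 3 (0) and HC D28 replicate 1 (184 CPM). For miR-297 they were EC D7 replicate 3 (0.379 CPM), EC D14 replicate 2 (1.36 CPM), EC D28 replicate 1 (7.61 CPM), HC D3 replicate 3 (8.35 CPM) and HC D7 replicate 2 (16.4 CPM). The median miR-297 sum in ECs was 0 CPM at D7 and D14. For miR-466 it was CM D3 replicate 3 (6.58 CPM). For miR-467 they were EC D1 replicate 2 (49.2 CPM), EC D14 replicate 4 (6.09 CPM) and HC D0 replicate 3 (0). For miR-669 they were FB D0 replicate 2 (23.4 CPM) and FB D14 replicate 3 (72.7 CPM).

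The change from D0 differed between HCs and FBs for 14 of 18 named members that were tested, by edgeR's F test of the 5 differences. It differed for 44.1% of all tested miRNAs. Some of the 18 were named for a large change from D0 in HCs or FBs, so the count is a description only. For the 5p rows the adjusted p was 1.2e-05 for miR-467a-5p, 0.000777 for miR-669c-5p, 0.000124 for miR-669a-5p, 0.00137 for miR-669o-5p, 0.0035 for miR-467e-5p and 0.00287 for miR-297c-5p (edgeR). For the 3p rows it was 0.00061 for miR-669a-3p, 0.00227 for miR-467e-3p, 0.0106 for miR-467a-3p, 8.3e-05 for miR-467b-3p, 0.0387 for miR-466i-3p, 0.0144 for miR-297a-3p and 0.00329 for miR-466a-3p (edgeR). For miR-467h, with no arm in its name, it was 0.0132 (edgeR).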

How the results depend on the processing

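The HC counts of D1, D3 and D7, the EC count of D28 and the HC against FB course stayed within 1.5 times under each alternative that was run, while the counts listed here moved by more. The cause was not tested. When counts were scaled by library size alone, the members changed numbered 13, 19, 20, 20 and 13 in CMs on the 5 days and 20 over the days, 16 in FBs at D3 and 13 at D7, 35 in HCs at D14 and 17 at D28, and 49 differed between CMs and FBs. In CMs the log2 change then reversed for miR-467a-5p (1.26 at D7, 1.58 at D14, 0.38 at D28) and miR-669c-5p (1.33 at D14, 0.58 at D28), as did the CM minus HC difference of miR-466i-5p (-0.86). With no filter, 1, 8 and 12 were called in CMs at D1, D3 and D7. DESeq2 called 5 in CMs at D3, 1 in ECs at D7, 2 at D14 and 5 in HCs at D28. With identical rows taken once, 1 was called in CMs and 6 in FBs at D3. Without the farthest libraries, 1 was called in ECs at D7 and 3 at D14, and 7 arm ratios each in FBs and HCs. With 5 added to each arm, 1 arm ratio was called in CMs and 7 in FBs, and with a mean of 50 counts per arm, 0 in FBs and 1 in HCs. With TMM-scaled CPM the summed level over D0 in CMs was 1.59, 1.71, 1.52, 1.35 and 0.943 (reversed at D28), in ECs 0.716 at D7 and in FBs 1.06 at D28 (reversed).

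Same-numbered libraries did not deviate together (mean correlation 0.036 in CMs, 0.0093 in ECs, -0.0020 in FBs, 0.014 in HCs and 0.026 across isolates), and 10, 6, 7 and 9 of 24 libraries correlated best with their own number. With the replicate block, 4, 5 and 4 members were called in CMs at D3, D14 and D28, 46 and 50 in HCs at D1 and D3, and 29 courses differed.

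Leaving out single libraries gave 2 to 7 calls in CMs at D3 (7 without D0 replicate 3), 1 to 6 at D14, 1 to 7 at D28 and 4 to 8 over the days, 1 to 4 in ECs at D14 (4 without D14 replicate 1), 6 to 10 in FBs at D3, 4 to 8 at D14 and 11 to 20 over the days (11 without D3 replicate 2), and 10 to 21 in HCs at D14 and 3 to 9 at D28. For arm ratios it gave 0 to 1 in CMs, 3 to 7 in FBs and 2 to 7 in HCs.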
